A study of Solanum virginianum with 2 samples.

Results

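Transcripts of the translation machinery were followed in a table of predicted small RNA targets sequenced from the pistils of a long purple eggplant, line 'B3-3'. They were chosen by name: a transcript belonged if its annotation held the words ribosomal protein, translation initiation factor or elongation factor, or if its gene symbol began with RPL or RPS and a digit. The rule found 80 of the 12937 transcripts in the table, 75 by the annotation and 5 by the symbol alone. The plants bear short-styled (S-morph) and long-styled (L-morph) flowers, and the pistils of both were mixed, so no morph could be compared with the other. One library of small RNAs and one of RNA 5′ ends (a degradome, which captures the ends that cut or decaying messengers leave) were sequenced with no replicate. The range beside a share is its 95% interval (exact, after Clopper and Pearson) and takes in counting error alone. The sample labels give phases 1 and 2 of flower growth (days 1 to 3 and days 3 to 6 from budding) for both libraries, from a single line and with no treatment named, while the protocol adds phase 5 (days 13 to 15) for the degradome and speaks of 6 samples pooled into it. The organism field reads Solanum virginianum, whereas the transcript names begin with Sme2.5, as those of Solanum melongena do. The small RNA table listed 135737 reads, and the degradome table listed 18764 pairs of a small RNA and a predicted site. Transcript levels were not measured, and of the carpel genes AG, CRC, SPT, STY1 and AGL1, 0 were listed as symbols, so the tissue could not be checked against its markers.

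Ribosomes are built from a large and a small subunit, each of ribosomal RNA and many proteins. Initiation factors bring the small subunit to the start codon of a messenger, and elongation factors then carry in aminoacyl-tRNA and move the ribosome along. Plant cells also hold bacterial-type ribosomes in chloroplasts and mitochondria, most of whose proteins are encoded in the nucleus. Growing organs such as young pistils need much new protein, and messengers for ribosomal proteins are usually among the most abundant of a plant cell. They are not known as classical targets of conserved plant miRNAs, which cut a paired messenger opposite their bases 10 and 11.

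The rule works on words, and these words did not always name a part of the translation machinery. Among the 80 transcripts, 56 had GO terms that name the ribosome or translation, 8 had none and 16 had only other functions. By role, 17 transcripts were large subunit proteins of the cytosolic type, 11 were small subunit proteins of the cytosolic type, 14 were ribosomal proteins of the bacterial type, 21 were initiation factors and 10 were elongation factors. Of these 73 transcripts, 12 had GO terms of other functions only; they stay in the counts by role and are pointed out where they had reads. The remaining 7 were set apart by their annotation or symbol. Among them were 3 Argonautes, which bind small RNAs and are also named eukaryotic translation initiation factor 2C. A further 3 were annotated as transcription elongation factors, but the symbol PERK9 and the GO terms of one (Sme2.5_12820.1_g00002.1) name a protein kinase.

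The small RNAs of the detected pairs included simple repeats and rare sequences. Of 11, the 8 that carried most of these pairs or reads are shown with bases 2 to 8, the seed, in capitals, because the repeat letters and the shifts between related sequences bear on what follows. No pair of the 8 shares a seed. The 3 sequences of miR166, which paired with RPL5, start one base apart, with a stretch of 19 bases in common that begins at base 1, 2 and 3. The next 3 are runs of UUC or AUC triplets.
aly-miR166a-5p_L-2R+2: aAUGUUGUcuggcucgaggau
aly-miR166e-5p_L-1R+1_1ss16AT: gAAUGUUGucuggcucgagga
sly-MIR166b-p5: gGAAUGUUgucuggcucgagg
ptc-MIR6426b-p5: uUUUUUCUucuucuucuucu
csi-MIR396c-p3_1ss11TC: cUUCUUCUuccucuucuuccu
ath-MIR414-p3_1ss15AG: uCAUCAUCaucaucgucg
aly-MIR169b-p3_1ss4TC: uUUCGCUCucuucuucuca
gma-MIR5368-p3_1ss2AT: gUGAGAUAccacucugg

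The share of these transcripts with degradome reads stood above that of the whole table, with intervals that do not overlap, but at positions outside the authors' top categories. At least 1 read lay at a predicted site on 21 of the 80 transcripts (26.25%, 17.0 to 37.3%). The background over all transcripts in the table was 5.15% (666 of 12937), and over the other transcripts with an annotation or symbol it was 6.95% (442 of 6360, 6.34 to 7.60%). Counted by pairs, 30 of 119 had a read (25.2%, 17.7 to 34.0%), beside 5.38% of all pairs. The number of predicted pairs was similar, with a mean of 1.49 per translation transcript and 1.45 per transcript in the whole table. Other things that bear on the chance of a read, such as transcript levels, were not measured. None of the 30 pairs stood in the authors' category 0 or 1, which by convention mark the highest signal on a transcript. The background for these categories was 12.7% of detected pairs (128 of 1010), and the interval for 0 of 30 runs from 0 to 11.6%. For the small RNAs paired with translation transcripts, 11 of 589 detected pairs on other transcripts were in these categories, a share inside that interval. Gene copies share reads and many transcripts share a small RNA, so the 21 transcripts are not independent observations, and no test of the difference was made.

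**Figure D1:**
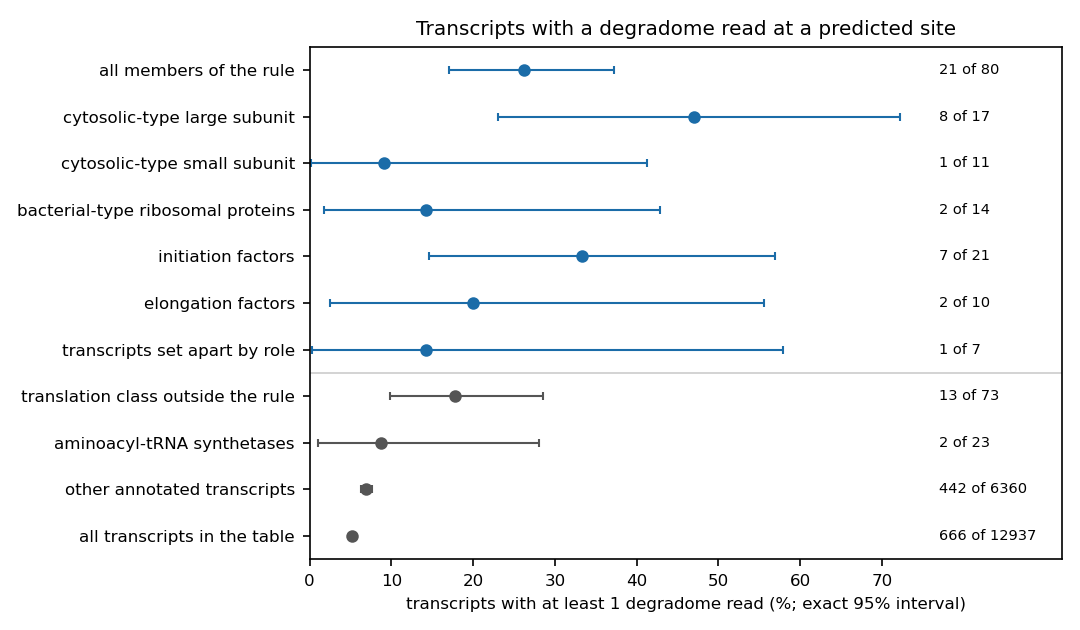
Share of transcripts with at least 1 degradome read at a predicted site, in percent, by role (blue) and in comparison groups (grey). Points are shares and bars are exact 95% intervals; the numbers at the right are transcripts with a read of all in the group. The cytosolic-type large subunit is at 47.1% and the whole table at 5.15%. Of the 8 large subunit transcripts with a read, 2 had GO terms of other functions only.

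Transcripts annotated as large subunit proteins of the cytosolic ribosome had a read on 8 of 17 (47.1%, 23.0 to 72.2%), with a median of 6 raw reads over their 11 detected pairs. Of the 8, 2 had GO terms of other functions only, At5g03795 and smek1, so the share is not of ribosomal proteins alone. The 17 also held every position with 10 or more raw reads among the translation transcripts, 5 positions on 3 transcripts, At5g03795 among them. RPL24 (Sme2.5_00162.1_g00007.1), a protein at the face of the large subunit that meets the small one, had 61 raw reads at nucleotide 321, at an aly-MIR169b-p3 site with an alignment score of 4, on a scale where 0 is a perfect match and 4 the worst listed. Another transcript annotated as L24e (Sme2.5_01301.1_g00003.1) had the same 61 raw reads at nucleotide 855 for the same small RNA. Its symbol, At5g03795, and its GO terms name a glycosyltransferase. Each had 20.3 normalized reads, so that raw reads were 3 times normalized ones, as if they had been divided over 3 places. The authors' p was 0.997 for both, and the small RNA had 2 reads in its own library.

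A second RPL24 gene (Sme2.5_03432.1_g00008.1) had 2 raw reads at nucleotide 118 for bdi-MIR398a-p5, and the first had 2 at nucleotide 124, with 1 normalized read each. These stood in category 3, by convention a signal at or below the middle of the transcript's positions. Normalized reads were below raw reads at all 4 detected pairs of the 3 L24e transcripts, so none of these reads could be assigned to 1 gene.

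RPL5, which carries 5S ribosomal RNA into the large subunit, had the lowest authors' p of the group. At nucleotide 702 of Sme2.5_01952.1_g00004.1 there were 21 raw reads for aly-miR166a-5p_L-2R+2 (score 2.5). At nucleotide 703 there were 14 for aly-miR166e-5p_L-1R+1_1ss16AT (score 3), and at nucleotide 704 there were 11 for sly-MIR166b-p5 (score 4). The p-values deposited by the authors were 0.0983, 0.17 and 0.252 in that order. All of these reads matched 1 place. The 3 positions were neighbours, each 9 nt before the end of its alignment. Positions lie at that distance in 923 of all 1010 detected pairs. The shift by 1 base with the start of the small RNA thus follows from the alignments and is no separate observation. In their own library the 3 small RNAs had 26, 151 and 1059 reads. The 5p strand of miR166 is the one that is usually discarded. All 3 positions were in category 2, by convention above the middle of the transcript's positions but below its maximum. The same 3 small RNAs had 2, 4 and 4 other predicted pairs, of which 0 had a read. The other RPL5 copy (Sme2.5_00001.1_g00027.1) had a score of 0, the lowest there is, with ath-MIR414-p3 at nucleotides 768 to 785, and 0 reads.

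The other large subunit transcripts had few reads. RPP2A (Sme2.5_05911.1_g00001.1), an acidic protein of the ribosomal stalk that binds elongation factors, had 6 raw reads at nucleotide 274 for ptc-MIR6426b-p5. RPL35 (Sme2.5_04171.1_g00002.1) had 2 at nucleotide 1467 for the same small RNA, and 0 at nucleotides 1109 to 1133, where a pair of CU-repeat small RNAs aligned with scores of 1 and 3. RPL32A (Sme2.5_00108.1_g00014.1) had 1 at nucleotide 39. The transcript annotated as L29e (Sme2.5_00515.1_g00005.1), whose symbol smek1 is that of a protein phosphatase subunit, had 1 at nucleotide 2161. Reads at RPP2A, RPL35, RPL32A and smek1 all matched 1 place.

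**Figure D2:**
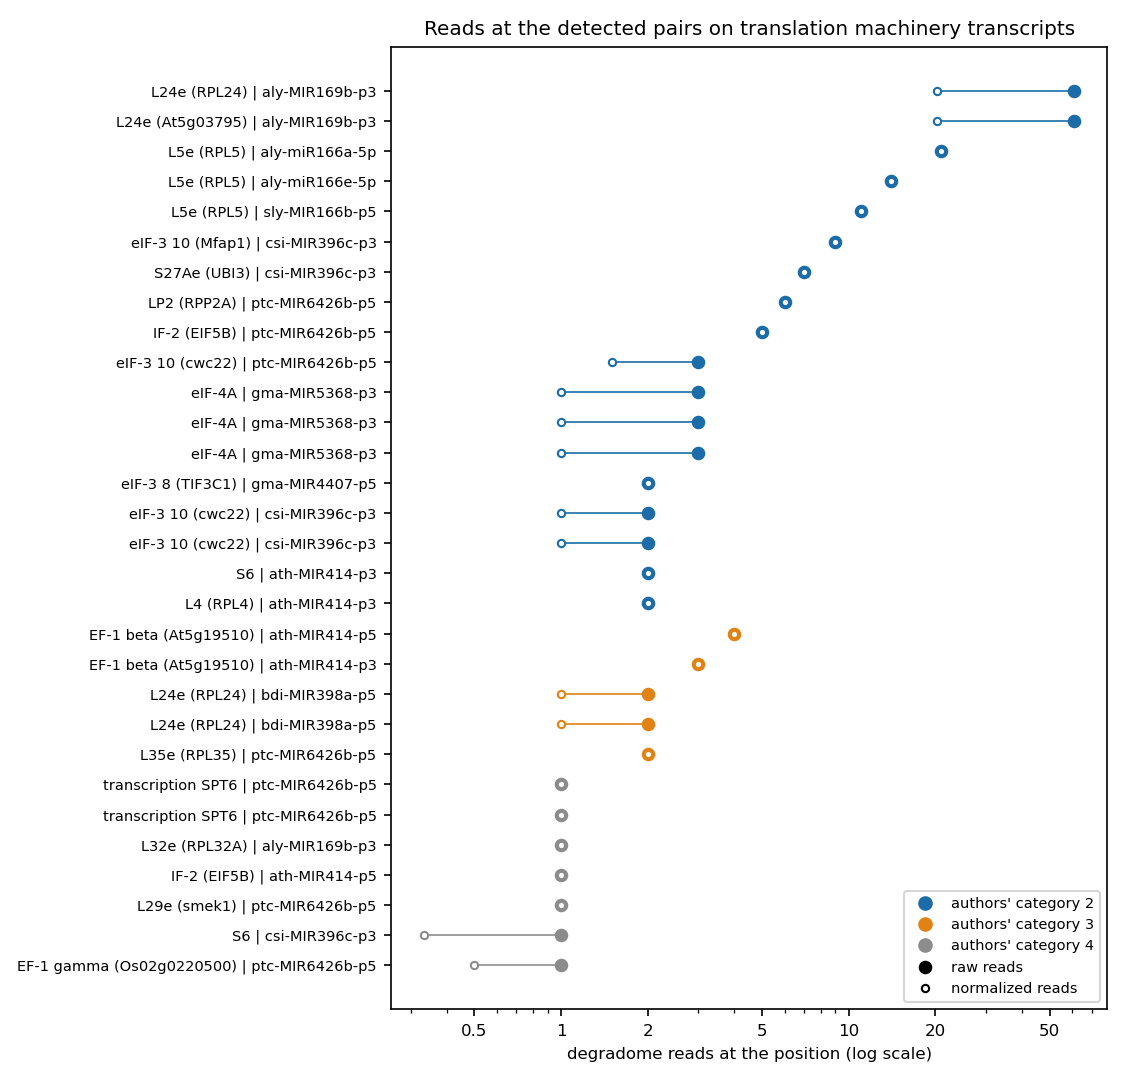
Raw reads (filled points) and normalized reads (open points) at each of the 30 detected pairs on translation machinery transcripts, on a log axis, coloured by the authors' category; labels give the annotation, the symbol in brackets and the small RNA. RPL24 and At5g03795 reach 61 raw but 20.3 normalized reads, and RPL5 runs from 21 to 11 with raw and normalized reads equal.

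Small subunit proteins of the cytosolic ribosome had a read on 1 of 11 transcripts (9.09%, 0.230 to 41.3%). It was UBI3 (Sme2.5_03836.1_g00005.1), a ubiquitin fused to ribosomal protein S27Ae, with 7 raw reads at nucleotide 240 for csi-MIR396c-p3. All 6 transcripts of RPS9C, a small subunit protein where the messenger enters, were without a read. For 5 of the 6 RPS9C transcripts the same small RNA, ath-MIR414-p3, aligned with a score of 2. The interval of this group overlaps that of the large subunit, and the difference between them was not tested.

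Ribosomal proteins of the bacterial type had a read on 2 of 14 transcripts (14.3%, 1.78 to 42.8%). RPL4 (Sme2.5_27763.1_g00001.1), with GO terms of the chloroplast, had 2 raw reads at nucleotide 779 for ath-MIR414-p3. The transcript annotated as S6 (Sme2.5_01611.1_g00003.1) had 2 at nucleotide 398 for the same small RNA and 1 raw read, or 0.333 normalized, at nucleotide 379 for csi-MIR396c-p3. The mitochondrial RPL21M, with GO terms of embryo sac development and double fertilization, had 0 reads at its site (score 4).

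Initiation factors had a read on 7 of 21 transcripts (33.3%, 14.6 to 57.0%), with a median of 3 raw reads and 1 normalized read over 10 detected pairs. Of these, 3 were copies of eIF-4A, the RNA helicase that unwinds the start of a messenger, on the same scaffold (Sme2.5_03772.1_g00007.1, Sme2.5_03772.1_g00009.1 and Sme2.5_03772.1_g00010.1). Each had 3 raw reads and 1 normalized read for gma-MIR5368-p3, at nucleotides 55, 469 and 571, so that 3 reads in all account for the 3 transcripts. EIF5B (Sme2.5_00206.1_g00009.1), which joins the subunits at the start codon, had 5 raw reads at nucleotide 1320 for ptc-MIR6426b-p5 and 1 at nucleotide 220 for ath-MIR414-p5. TIF3C1 (Sme2.5_00216.1_g00021.1), a subunit of the eIF-3 complex on the small subunit, had 2 at nucleotide 1792.

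The last 2 initiation factors with a read carried symbols of other proteins. The transcript annotated as eIF-3 subunit 10 with the symbol Mfap1 (Sme2.5_07504.1_g00001.1) had 9 raw reads at nucleotide 475 for csi-MIR396c-p3, the most of this role. Another with that annotation, cwc22 (Sme2.5_00579.1_g00003.1), has GO terms of the spliceosome and held 6 predicted pairs, more than any other of the 80 transcripts. It had 2 raw reads at nucleotide 472 and 2 at nucleotide 763 for csi-MIR396c-p3, each with 1 normalized read, and 3 raw reads or 1.5 normalized at nucleotide 475 for ptc-MIR6426b-p5. Alignments of csi-MIR396c-p3 on it recurred 291 nt apart, once with a score of 2 and once with a score of 4 at both ends.

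Elongation factors had a read on 2 of 10 transcripts (20%, 2.52 to 55.6%). An EF-1 beta transcript, At5g19510 (Sme2.5_06862.1_g00002.1), part of the complex that recharges EF-1 alpha with GTP, had 4 raw reads at nucleotide 307 for ath-MIR414-p5 (score 2) and 3 at nucleotide 305 for ath-MIR414-p3. The authors' p-values for them were 0.32 and 0.87. EF-1 gamma, Os02g0220500 (Sme2.5_03718.1_g00001.1), had 1 raw read, or 0.5 normalized. The EF-1 alpha transcript (Sme2.5_09179.1_g00002.1), which delivers aminoacyl-tRNA, had 0, as had the 3 transcripts annotated as the translocase EF-2, whose GO terms all name other functions. Of the 7 transcripts set apart, the SPT6 transcript (Sme2.5_00034.1_g00013.1), for a factor of transcription, had 1 raw read at each of nucleotides 124 and 246, and the Argonautes AGO2, AGO16 and PHN1 had 0 over 6 pairs.

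Pairs with a read had alignment scores from 1.5 to 4. Of the 9 pairs on translation transcripts with a score of at most 1, 0 had a read (0 to 33.6%), an interval that takes in the share on other transcripts (97 of 823, 11.8%, 9.66 to 14.2%). At scores of 1.5 and 2 the counts were 6 of 19 (31.6%, 12.6 to 56.6%) against 164 of 1637 (10.0%, 8.61 to 11.6%). At scores of 2.5 and 3 the counts were 9 of 23 (39.1%, 19.7 to 61.5%) against 254 of 3937 (6.45%, 5.70 to 7.26%). At a score of 3.5 they were 5 of 18 (27.8%, 9.69 to 53.5%) against 144 of 3323 (4.33%, 3.67 to 5.08%), and at a score of 4 they were 10 of 50 (20%, 10.0 to 33.7%) against 321 of 8925 (3.60%, 3.22 to 4.0%). Of the 59 transcripts without a read, the closest alignments were those of RPL5 and of a transcript annotated as initiation factor IF-2 (Sme2.5_04012.1_g00006.1, symbol pol, a retroelement polyprotein), each at 0. They were followed by eif2b2 at 0.5, a subunit of the exchange factor that recharges eIF-2, and by TIF3F1 of eIF-3, an S19 transcript (Sme2.5_00514.1_g00008.1) and an rplL stalk protein (Sme2.5_01555.1_g00001.1) at 1. RPS9C (Sme2.5_08508.1_g00001.1) and GTE10, a bromodomain protein annotated as IF-2, had 1.5. A further 9 transcripts were tied at 2, and EFTUD2, a spliceosomal relative of EF-2, and an L9 transcript (Sme2.5_06771.1_g00001.1) are named of these because their small RNAs had the most reads. The small RNAs of these 10 had 1 to 5 reads.

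Apart from miR166 on RPL5, the pairs of small RNAs with over 50 reads had no degradome read on translation transcripts. Among the transcripts without a read, nta-miR394 (599 reads) was paired with a pol transcript annotated as S4, and nta-miR396a (553 reads) with a transcript annotated as EF-2 (Sme2.5_00078.1_g00013.1) whose GO terms name DNA integration. cme-miR530a_R+1_1ss20TG (67 reads) was paired with the mitochondrial EF-G transcript At1g45332. All 3 pairs had the worst listed score, 4. ppt-miR894_L-3R+1 (828 reads) had a score of 4 on TIF3C1, again with 0 reads.

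A few repeat sequences supplied many of the pairs. In all, 41 small RNAs were paired with translation transcripts and 11 of them with a read. Of the 119 pairs, 97 came from small RNAs with at most 3 reads in their own library, as did 24 of the 30 detected ones (80%). Of all other detected pairs 67.4% did, and of those of the same 41 small RNAs on other transcripts 90.8%. The 3 triplet repeats ath-MIR414-p3, csi-MIR396c-p3 and ptc-MIR6426b-p5, with 1 read each, gave 52 of the 119 pairs, on 38 transcripts, and 16 of the 30 detected ones. On all other transcripts the same 3 gave 4109 of 18645 pairs and 401 of the 980 detected ones. These repeats were paired with 1333, 692 and 1490 transcripts in the whole table. The share of bases equal to the base 3 positions before was 93.3% in ath-MIR414-p3, 83.3% in csi-MIR396c-p3 and 94.1% in ptc-MIR6426b-p5, beside a median of 23.8% over the 509 small RNAs of the degradome table.

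The same small RNAs could be followed on other transcripts. For ptc-MIR6426b-p5, 8 of 16 translation pairs had a read (50%, 24.7 to 75.3%), against 179 of 1843 others (9.71%, 8.40 to 11.2%). For csi-MIR396c-p3 the counts were 5 of 17 against 121 of 921 (29.4%, 10.3 to 56.0%, and 13.1%, 11 to 15.5%), and for ath-MIR414-p3 they were 3 of 19 against 101 of 1345 (15.8%, 3.38 to 39.6%, and 7.51%, 6.16 to 9.05%). The intervals did not overlap for ptc-MIR6426b-p5 and did for csi-MIR396c-p3 and ath-MIR414-p3. These counts follow the naming rule and are not of translation machinery alone. The detected pairs of ptc-MIR6426b-p5 include those on the SPT6, smek1 and cwc22 transcripts. Those of csi-MIR396c-p3 include the ones on Mfap1 and cwc22. Shares without these transcripts were not counted for single small RNAs. The 24 nt PC-3p-519926_2, of no known family, had 0 of 6 translation pairs with a read (0 to 45.9%) and 26 of 583 others (4.46%, 2.93 to 6.47%). For aly-MIR169b-p3 the counts were 3 of 6, against 7 of 108 (6.48%, 2.65 to 12.9%). The 3 were on RPL24, RPL32A and At5g03795, the last annotated as L24e with GO terms of other functions. If each of the 41 small RNAs had been detected on translation transcripts at its own rate on other transcripts, 8.08 of the 119 pairs would have had a read, where 30 did. The pairs of each small RNA share its sequence, and this number is a description, not a test.

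**Figure D3:**
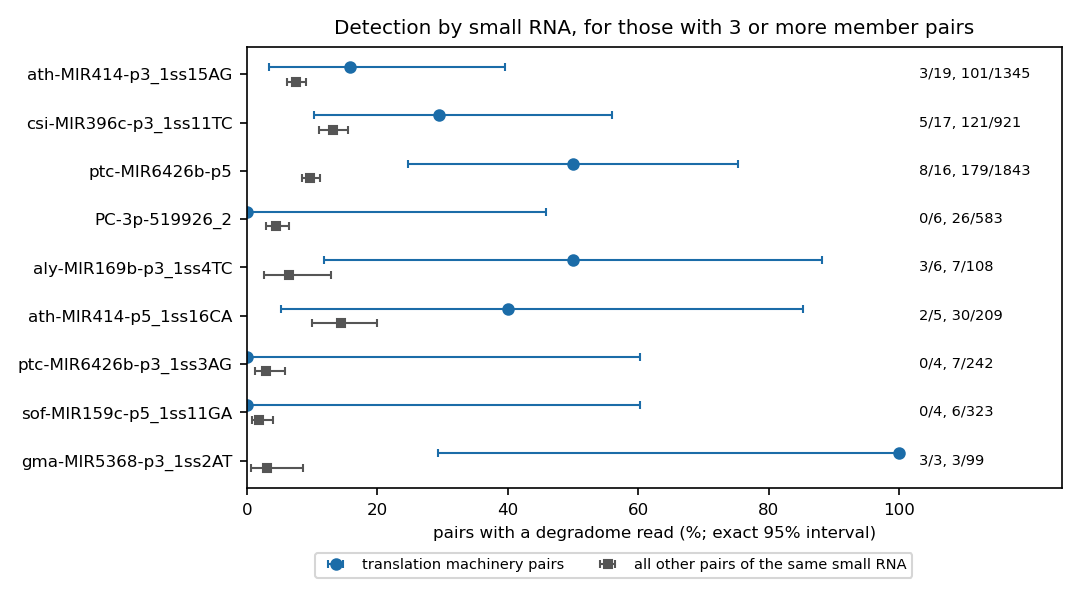
Share of pairs with a degradome read, in percent, for each small RNA with 3 or more translation machinery pairs; blue points are those pairs, grey squares are all other pairs of the same small RNA, and bars are exact 95% intervals. The numbers at the right are detected of all pairs, first on translation transcripts. ptc-MIR6426b-p5 is at 50% against 9.71%. Detected pairs on SPT6, cwc22, smek1, Mfap1 and At5g03795 transcripts are counted among the translation machinery pairs.

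No detected position was in the categories that mark the highest signal of a transcript, and most had more than a lone read. Over 1 raw read was present at 23 of the 30 positions (76.7%), beside a background of 49.5% over all detected pairs and 43.0% for the same small RNAs on other transcripts (253 of 589). The median was 2.5 raw reads (quartiles 2 and 5.75), against 1 over all detected pairs, and the highest was 61, against 754. Raw reads count a shared read at each of its places. In normalized reads the median was 1.75, against 1 over all detected pairs. Category 2 held 18 of the 30 (60%, 40.6 to 77.3%), category 3 held 5 and category 4, the positions with 1 read, held 7 (23.3%, 9.93 to 42.3%). For the same small RNAs on other transcripts, category 2 held 35.1% (31.3 to 39.2%) and category 4 held 57.0% (52.9 to 61.1%), while categories 0 and 1 held 11 of 589. Reads were shared between places at 12 of the 30 positions (40%), near the background of 35.6%. None of the 30 had an authors' p of at most 0.05, beside 12.3% of all detected pairs and 7 of the 589 of the same small RNAs on other transcripts. A p over 0.8 was given to 24 of the 30 and to 533 of those 589.

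**Figure D4:**
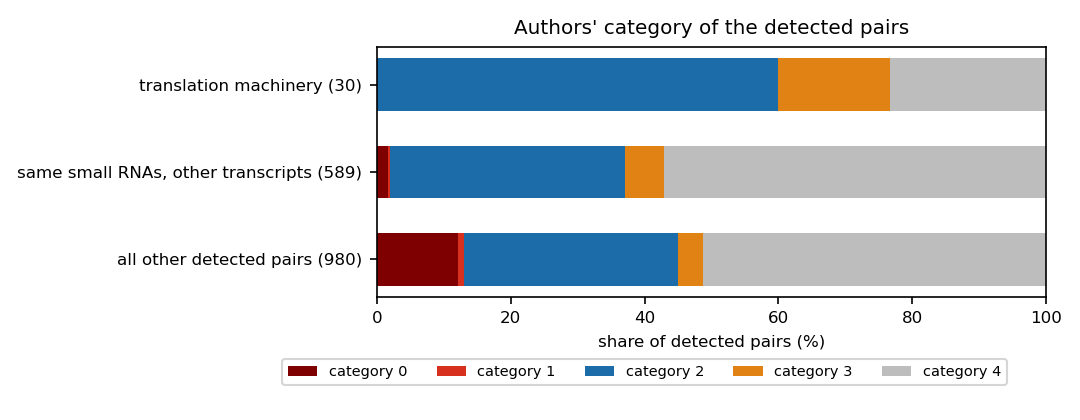
Share of detected pairs in each of the authors' categories, in percent, for the 30 pairs on translation transcripts, the 589 pairs of the same small RNAs on other transcripts and all 980 other detected pairs. Category 0 is absent from the top bar and holds 12.1% of the bottom bar; category 2 holds 60% of the top bar.

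The detected positions ran from nucleotide 39 to 2161 of their transcripts with a median of 470.5, and the median over all detected pairs was 677.5. Transcript lengths were not available, so these medians do not show how far along their transcripts the reads lay. In 25 of the 30 pairs the alignment ended 9 nt after the position, which puts it opposite base 10 of the small RNA, as it did in 923 of all 1010 detected pairs. The frame of the triplet repeats was uneven to different degrees. Dividing the end of the alignment by 3 gave the same remainder in 1183 of 1364 pairs of ath-MIR414-p3 (86.7%), and in 17 of its 19 on translation transcripts. For csi-MIR396c-p3 the most frequent remainder was found in 568 of 938 pairs (60.6%) and in 11 of 17 on translation transcripts. For ptc-MIR6426b-p5 a pair of remainders were nearly equal, with 887 and 862 of 1859 pairs, and with 6 and 10 of its 16 on translation transcripts.

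Other genes of protein synthesis, outside the rule, were read in the same way. Of 23 aminoacyl-tRNA synthetases, which load tRNA with amino acids, 2 had a read (8.70%, 1.07 to 28%), both with 1 raw read, on prolyl-tRNA and threonyl-tRNA synthetase. The 1 peptide chain release factor had 0 reads and the 1 ribosome biogenesis transcript, NIP7, had 1, while poly(A)-binding proteins were represented by 0 annotations. Transcripts that the KOG column files under translation, without those of the rule, had a read in 13 of 73 cases (17.8%, 9.84 to 28.5%), again with 0 pairs in category 0 or 1 and with a median of 1 raw read. This interval overlaps that of the 80 transcripts (17.0 to 37.3%). It also lies above that of all annotated transcripts outside the rule (6.34 to 7.60%), so a raised share was not particular to the rule. The differences were not tested.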

How the data were processed

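Per the labels' protocols, total RNA came from mixed S-morph and L-morph pistils. The small RNA library used the Illumina TruSeq kit, and the degradome followed German and colleagues. The programs for naming, target prediction and categories, and the genome build, are not given in the sources used here. Per the file headers, the deposited small RNA values are read counts per sequence. The authors deposited an alignment score per pair, raw degradome read counts, normalized reads (a signal value whose definition the header lacks, understood here as raw reads split among matching places), a TPB signal, a category and a p-value, taken as unadjusted. Only the listed reads are given, and they are not the full depth of either library.

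Members, roles and lists were chosen with earlier results of these data known. Ribosomal proteins were called cytosolic type where the annotation ends in e or names LP0 or LP2, or the symbol is RPS19C, since the words 60S and 40S first planned do not occur. A pair was detected with at least 1 raw read, and transcripts were counted 1 time. Raw and normalized reads within 1e-06 were called equal. Intervals are on counts of transcripts or pairs and cover counting error only, because neither library was replicated. Amplified reads carry no molecular identifiers. No test between groups was made, since each library had no replicate. Every transcript with a read was named, with 10 of the closest alignments without one, ties being broken by the reads of the small RNA. Abundant miRNAs, RPL21M, EF-1 alpha, EF-2 and the Argonautes were chosen after their values were seen. Alternatives changed the rule, the score limit, the read minimum and the small RNAs. A few items are not reported here. Counting was tested on simulated data. Intervals came from SciPy 1.17.1, counts from pandas 2.3.3 and NumPy 2.4.6, and plots from matplotlib 3.10.9, under Python 3.11.15.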

Additional observations from a re-analysis of the deposited data

How the results depend on the processing

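The results were 21 translation transcripts with a read, 30 pairs, and a share of 26.25%. With alignment scores of at most 3 they were 10, 15 and 25%, beside 7.36% of all transcripts, and with scores of at most 2.5 they were 8, 10 and 25% (11.5 to 43.4%), beside 9.78%. With reads that match 1 place they were 13, 18 and 16.25%, beside 3.33% of all transcripts. With an authors' p of at most 0.05 they were 0, 0 and 0% (0 to 4.51%). Of all transcripts 0.309% (40 of 12937) passed that limit, a share inside this interval. Without small RNAs paired with over 200 transcripts they were 7, 9 and 25.9%, beside 4.79% of all transcripts. Each of these alternatives drops pairs or reads by its construction. The other 6 alternatives chosen at the start kept both counts within 1.5 times and the share within its interval. Among these, taking annotated transcripts as the comparison could change only the comparison share, to 7.19%. Both alternatives added after the data were seen also kept the counts and the share there. They were without the 7 transcripts set apart by role, and, among the other 73, with only those whose GO terms name the ribosome or translation. No paired analysis was possible because each library had 1 sample and no result came from a test. Depth limits what a position without reads can show, since 7 of the 30 detected pairs rest on 1 read and transcript levels were not measured.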
